A study of Mus musculus with 2 samples.

Results

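Bud23, Nsun5 and 8 genes of related RNA modification were followed in 1 mouse embryonic stem (ES) cell line on 2 expression arrays. The members were Bud23, Trmt112, Dimt1, Fbl, Nop2, Nsun2, Nsun3, Nsun4, Nsun5 and Nsun6, each taken with every probe set (a group of probes for 1 transcript) annotated to that symbol alone. This gave 10 of 18194 genes and 20 of 34958 probe sets with 1 gene symbol. The line, ESSP9, has the genotype Del1.3MbWBS, in which 1.3 Mb of the region of Williams-Beuren syndrome (WBS) is missing. People with this syndrome lack a stretch of a chromosome whose genes have counterparts in the mouse. Both arrays belong to 1 group, described as biological replicates. Whether they came from separate cultures is not stated in the labels, so the spread between them may be technical. The cells grew with LIF (leukaemia inhibitory factor, a cytokine that keeps mouse ES cells undifferentiated) and 20% serum replacement on feeder cells. No line without the deletion was analysed here, so no effect of the deletion was estimated. The labels do not say which genes the deletion covers or how many copies were lost.

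Ribosomal RNA is methylated at many bases and riboses while ribosomes are assembled in the nucleolus, and a smaller set of marks is added in mitochondria. Bud23 methylates a guanosine of the small-subunit rRNA and needs the small zinc-binding protein Trmt112, which stabilises several methyltransferases. Dimt1 dimethylates adenosines of the same rRNA, and Fbl (fibrillarin) is the ribose methyltransferase of box C/D small nucleolar ribonucleoproteins. The Nsun family makes 5-methylcytosine in RNA. Nop2 and Nsun5 act on the large-subunit rRNA and Nsun4 on mitochondrial rRNA, whereas Nsun2, Nsun3 and Nsun6 are known chiefly for transfer RNA. The set is thus wider than ribosomal RNA alone, and Trmt112 is an activator rather than an enzyme. Bud23 lies in the WBS segment and Nsun5 in its flank, both on chromosome 5 with 9 protein-coding genes between them in the reference gene order.

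Promoter sequences of the members were taken from RefSeq (GRCm38.p6) as windows of 300 bases, 250 before and 50 after an annotated start; 8 of the 10 members had 10 such windows, and Nsun5 and Fbl are not among them. The 4 stretches below are the 120 bases before the start, 5′ to 3′ on the gene's strand, and are shown because Bud23 lies in the WBS segment and the other 3 hold the motif matches described next. They are chr5:135064960-135065079 (minus strand) for Bud23, chr6:125131763-125131882 (plus strand) for Nop2, chr16:62786717-62786836 (minus strand) for Nsun3 and chr2:15049313-15049432 (minus strand) for 1 of the Nsun6 starts. Capitals mark matches on either strand to the ETS core CCGGAAGT, to the E-box CACGTG and to the CCAAT box, which were chosen after the sequences were seen.
Bud23: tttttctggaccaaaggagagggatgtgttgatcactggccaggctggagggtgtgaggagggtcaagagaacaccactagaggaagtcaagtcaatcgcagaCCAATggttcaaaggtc
Nop2: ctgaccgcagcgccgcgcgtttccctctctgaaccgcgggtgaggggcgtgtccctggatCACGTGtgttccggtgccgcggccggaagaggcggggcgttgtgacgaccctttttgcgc
Nsun3: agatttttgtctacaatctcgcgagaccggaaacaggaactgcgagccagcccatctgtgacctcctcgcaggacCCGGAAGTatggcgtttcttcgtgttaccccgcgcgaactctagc
Nsun6: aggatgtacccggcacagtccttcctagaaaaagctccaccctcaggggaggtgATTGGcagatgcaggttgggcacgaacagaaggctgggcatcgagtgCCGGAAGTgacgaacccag

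The core CCGGAAGT, bound by ETS-family factors, was found in 3 of the 10 member windows, beside 3.89% of all 32851 windows. It began 45 bases before the start of Nsun3, 19 bases before the Nsun6 start shown, and at base 9 after the start of Nsun2. The E-box CACGTG, bound by Myc and related factors, was in 1 window, that of Nop2, beginning 60 bases before the start, beside 7.15% of all windows. The CCAAT box was in 3 windows, beside 37.4% of all. In Bud23 it began 17 bases before the start, and in Nsun6 it was read on the other strand. The GC box GGGCGG was in 5 windows, beside 35.7%, and the TATA box TATAAA was in 0 of 10, beside 13.6%. These are matches of letters and not measured binding. As the ETS, E-box and CCAAT motifs were chosen after the sequences were seen, their shares are no test of enrichment. The shares over all windows were not matched for CpG content.

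The member windows had a median GC content of 59.7%, beside a median of 52.7% over all windows. They ranged from 50% for Bud23 to 67.7% for Trmt112. The median ratio of observed to expected CpG pairs was 0.769, beside 0.384. Bud23 had the lowest ratio of these 10 windows, at 0.218, with the next at 0.585 for the Nsun6 start shown and the highest at 1.09 for Nop2. Of all windows 31.5% were at or below the Bud23 value. The Bud23 stretch shown lies inside the gene model of its neighbour Dnajc30.

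**Figure D1:**
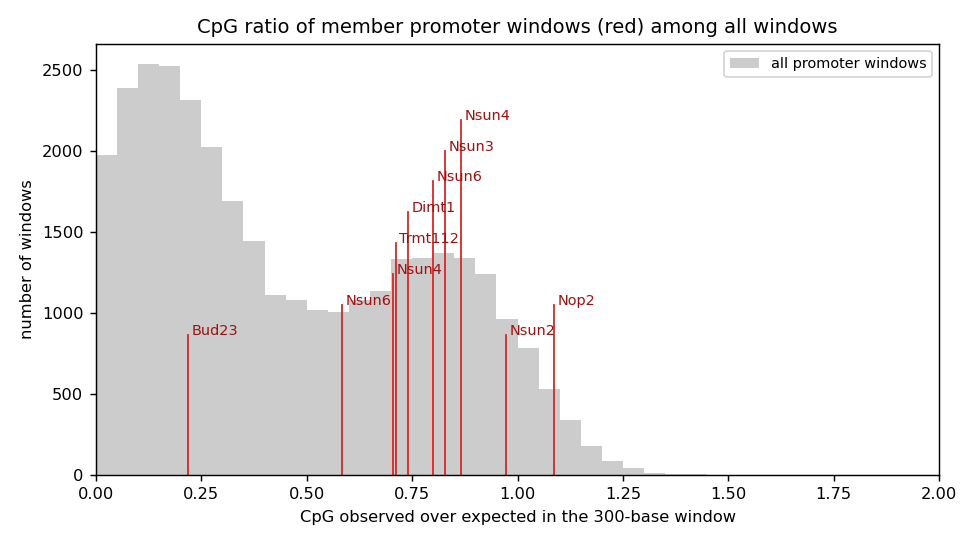
Ratio of observed to expected CpG pairs (x axis) in promoter windows of 300 bases; grey bars count all 32851 windows (y axis; 1 window lies beyond the axis), and each red line is 1 of the 10 member windows, its height only spacing the labels. Bud23 lies at 0.218, and the other 9 windows lie between 0.585 and 1.09.

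Expression is given as RMA log2 values, per array and as mean ± SD (n = 2). RMA (robust multi-array average) corrects background, equalises the arrays' distributions and summarises the probes of a probe set. The medians of all 45101 probe sets were 6.01 on both arrays. Since probes differ in affinity, an order of values between genes is not an order of transcript abundance. A gene was counted above background when its brightest probe set exceeded the 95th percentile of the 39 measured olfactory receptors, whose transcripts are not expected in ES cells, on each array and in the mean. That threshold was 5.59 for the mean. For single probe sets it was taken over 44 olfactory probe sets and was 5.54. All 11 measured ES cell markers were above it, with medians of 12.08 on replicate 1 and 12.06 on replicate 2, and so were all 16 measured fibroblast markers, with medians of 12.62 and 12.64. The lowest fibroblast marker was Fap at 8.81. Of the blood cell markers 1 of 3 was (Cd3e at 6.56), while Ptprc was at 4.05 and Itgam at 3.92. Of the epithelial markers 2 of 3 were (Krt5 at 6.34 and Epcam at 10.36), while Krt14 was at 4.80. Krt5 was 0.75 log2 units above the threshold and read 6.47 on replicate 1 and 6.20 on replicate 2. The labels name feeder cells in the culture. Which cells the fibroblast, blood cell and epithelial transcripts came from, and their part in each member's value, was not tested. In such bulk RNA fewer cells of a type and less RNA per cell cannot be told apart.

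All 10 members were above background on their brightest probe set, beside 68.4% of 18194 genes. Of their 20 probe sets 16 were, beside 62.7% of 34958. The median of the members' levels was 9.48, beside 7.19 over all genes, which include 5757 not above background. The 4 probe sets that were not above background belonged to Nsun3 (3) and Nsun6 (1).

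**Figure D2:**
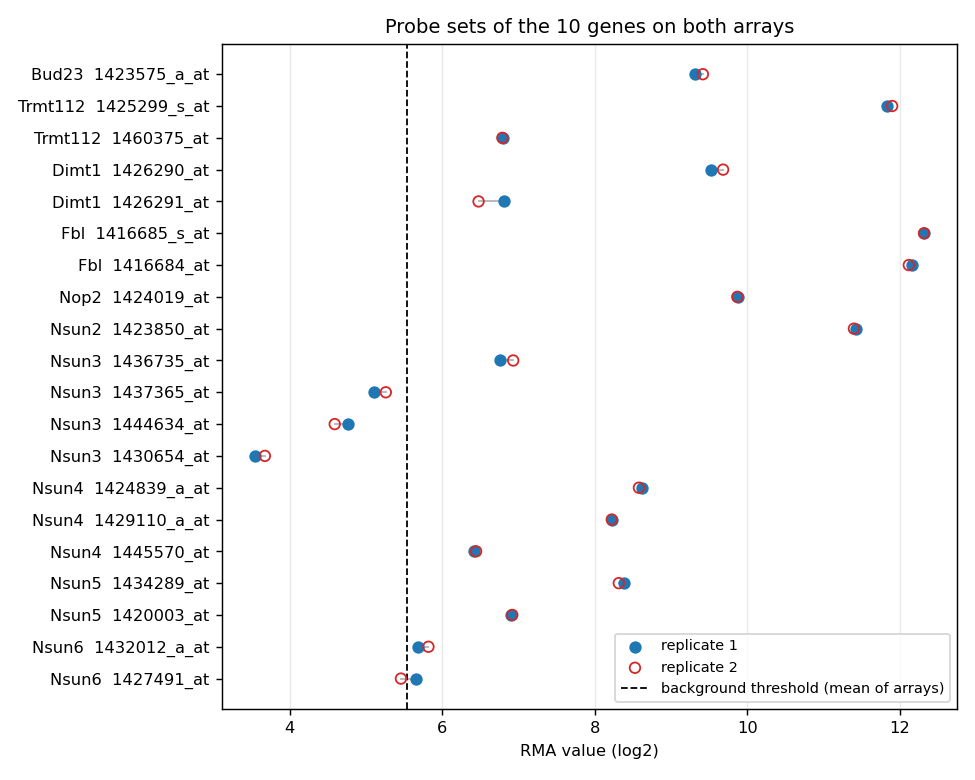
RMA values (log2, x axis) of the 20 member probe sets (rows, named by gene and probe set) on replicate 1 (filled) and replicate 2 (open); the dashed line is the threshold for single probe sets, 5.54. The 3 Nsun3 probe sets at the left lie below it on both arrays, and 1 Nsun6 probe set has its arrays on either side.

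Among the factors of the small subunit, Bud23 had 1 probe set, 1423575_a_at, which read 9.31 on replicate 1 and 9.42 on replicate 2 (9.36 ± 0.073). Its mean was 3.83 log2 units above the threshold. The suffix _a_at marks probes common to several transcripts of 1 gene, so transcripts of Bud23 were not separated. The neighbours of Bud23 in gene order are Stx1a, a syntaxin of synaptic vesicle release, and Dnajc30, a mitochondrial DnaJ protein. Stx1a read 8.31 on both arrays (8.31 ± 0.0070), and Dnajc30 read 9.11 and 9.17 (9.14 ± 0.044). The gene models of Bud23 and Dnajc30 overlap in the reference, and where their probes lie was not tested.

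Trmt112, the partner of Bud23, had a pair of probe sets with very different values. Probe set 1425299_s_at read 11.83 and 11.90 (11.86 ± 0.048). Probe set 1460375_at read 6.80 and 6.79 (6.79 ± 0.0067). The means lay 5.07 log2 units apart, the widest such gap among the 7 members with several probe sets, and both were above background on each array. The suffix _s_at marks probes that several transcripts can share. With unshared probe sets alone, Trmt112 would be represented by the value of 6.79.

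Dimt1 also had probe sets at different levels, 2.96 log2 units apart. Probe set 1426290_at read 9.52 on replicate 1 and 9.68 on replicate 2 (9.60 ± 0.12). Probe set 1426291_at read 6.81 and 6.48 (6.64 ± 0.24). The brighter was thus higher on replicate 2 and the dimmer on replicate 1. Fbl, in contrast, gave close readings on both probe sets. Probe set 1416685_s_at read 12.31 and 12.32 (12.31 ± 0.0041), and 1416684_at read 12.16 and 12.12 (12.14 ± 0.032). Their means were 0.17 log2 units apart.

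Of the large-subunit cytosine methyltransferases, Nop2 had 1 probe set, 1424019_at, at 9.88 and 9.87 (9.87 ± 0.0090). Nsun5, in the WBS flank, read 8.38 and 8.31 on 1434289_at (8.34 ± 0.044). Its other probe set, 1420003_at, read 6.90 and 6.92 (6.91 ± 0.014). Both Nsun5 probe sets were above background on each array, by 2.81 and 1.37 log2 units in the mean, and they lay 1.44 apart. Beside Nsun5 in gene order are Trim50, which had no probe set of its own symbol here, and Pom121, a nucleoporin gene, at 9.92 and 9.96 (9.94 ± 0.034). The models of Nsun5 and Pom121 overlap in the reference.

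Nsun4, the mitochondrial member, was above background on all 3 of its probe sets. The values were 8.61 and 8.58 on 1424839_a_at (8.60 ± 0.025). They were 8.22 on both arrays for 1429110_a_at (8.22 ± 0.00092). On 1445570_at, the unshared one, they were 6.41 and 6.44 (6.43 ± 0.022). The lowest was 2.17 log2 units under the highest. Nsun4 acts with Mterf4, which read 8.64 and 8.77 (8.71 ± 0.092).

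Of the members of transfer RNA methylation, Nsun2 had 1 probe set, 1423850_at, at 11.43 and 11.40 (11.41 ± 0.022), 5.88 log2 units above the threshold. Nsun3, which modifies a mitochondrial transfer RNA, was above background on 1 of 4 probe sets. Probe set 1436735_at read 6.76 and 6.93 (6.84 ± 0.12). The others read 5.10 and 5.26 on 1437365_at, 4.76 and 4.59 on 1444634_at, and 3.55 and 3.67 on 1430654_at. All 3 were below the threshold on both arrays, the lowest being 1430654_at with a mean of 3.61, so the call for Nsun3 rests on 1 probe set, and with the median of its probe sets it was not above background (4.93).

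Nsun6 lay at the threshold. Probe set 1432012_a_at read 5.68 and 5.82 (5.75 ± 0.098), and 1427491_at read 5.65 and 5.46 (5.55 ± 0.14). The first was above background on both arrays, by 0.16 log2 units over the gene threshold in the mean, and the second on replicate 1 alone. Against 37 vomeronasal and taste receptor genes in place of the olfactory ones, which put the threshold at 6.08, Nsun6 was not above background. The remaining 9 members were. Among the 7 members with several probe sets, 2 (Nsun3 and Nsun6) had some above background and some not, beside 43.3% of 9012 genes with several probe sets.

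The arrays were compared by their difference. Over the 12769 genes that exceeded the threshold on either array, the difference (replicate 2 minus replicate 1) had an SD of 0.114 log2 units and a median of 0.015. A difference of 1.2-fold or more, in either direction, was reached by 0 of 10 members on their brightest probe set, beside 3.79% of all 12769; at 1.5-fold it was also 0 of 10, beside 0.0783%. The members' differences were highest for Nsun3 (0.17) and Dimt1 (0.16) and lowest for Nsun5 (-0.062). For Bud23 it was 0.10, for Nsun6 0.14, for Trmt112 0.067 and for Fbl 0.0058. For Nop2 it was -0.013, for Nsun2 -0.032 and for Nsun4 -0.035. Replicate 2 was thus the higher in 6 of 10 members, beside 56.8% of the 12769 genes. Of single probe sets, 1 of the members' 17 that exceeded the threshold on either array reached 1.2-fold, beside 5.07% of 22666, which is near the background share.

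That probe set was Dimt1 1426291_at, which was 1.26-fold higher on replicate 1 (difference -0.33). The spread between arrays varies with level, so each difference was also set beside the SD of the difference over the 1000 probe sets nearest in mean. For 1426291_at that SD was 0.153 and the difference was -2.19 times it. For the brighter Dimt1 probe set the SD was 0.0695 and the difference of 0.16 was 2.37 times it. The Dimt1 probe sets thus differed in opposite directions, each by over 2 such SDs. They were the most extreme of the 20 member probe sets by this measure, and 6 of the 20 differed by at least 1 such SD. The shares of all probe sets past 1 and past 2 such SDs were not counted. These counts therefore do not set the members apart from other probe sets. Bud23 differed by 1.32 times its SD of 0.0784 and Nsun5 1434289_at by -0.65 times its SD of 0.0964. With 2 arrays of 1 group these are descriptions, and no test was made.

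**Figure D3:**
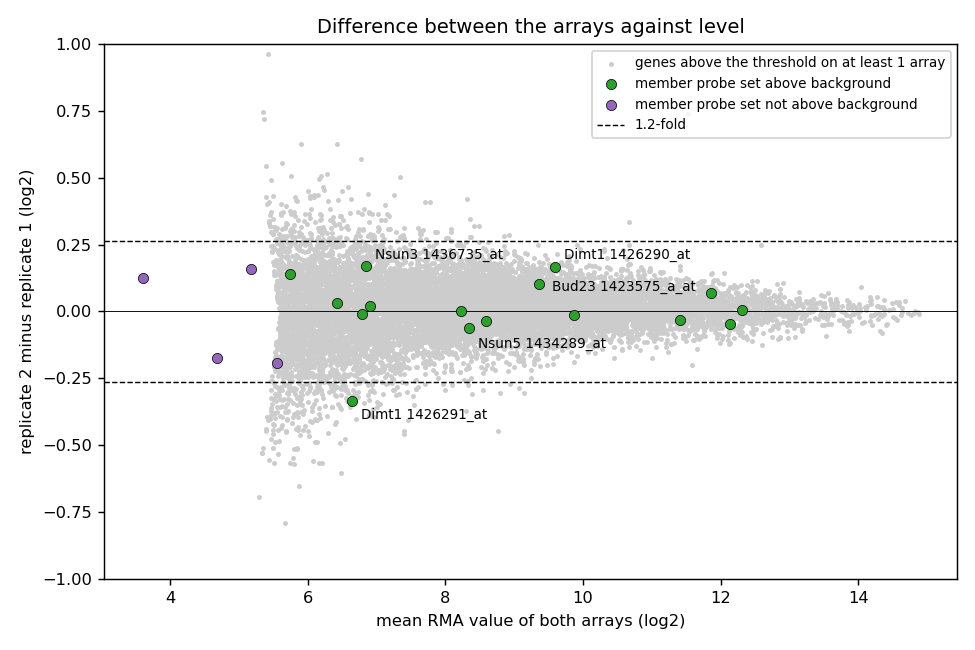
Difference between the arrays (replicate 2 minus replicate 1, log2, y axis) against the mean of both arrays (log2, x axis) for 12769 genes (grey) and the 20 member probe sets (green above background, purple not); dashed lines mark 1.2-fold. Dimt1 1426291_at, at -0.33, is the 1 member probe set beyond the lines.

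The wider pathway was described by 10 fixed lists of 91 genes, of which 87 were measured and 86 were above background, beside the 68.4% of all genes. All 8 other rRNA modifying enzymes were above background: Emg1, a pseudouridine methyltransferase of the small subunit, at 12.28 ± 0.031, Zcchc4, which methylates adenosine in the large subunit, at 7.25 ± 0.11, and its small-subunit counterpart Mettl5 at 10.21 ± 0.056. All 7 genes of mitochondrial rRNA methylation were, among them Mterf4, given above, Mettl15, a cytosine methyltransferase of the small subunit, at 7.74 ± 0.054 and Tfb1m, the mitochondrial relative of Dimt1, at 8.36 ± 0.20. Tfb1m read 8.22 on replicate 1 and 8.50 on replicate 2. It was the 1 gene of the 7 in that list past 1.2-fold, beside 3.79% of 12769 genes. Of the other m5C methyltransferases, Trdmt1, a transfer RNA enzyme, was above background at 8.49 ± 0.094. Nsun7 was not, at 5.44 on replicate 1 and 5.10 on replicate 2 (5.27 ± 0.25), both below the threshold.

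All 6 other proteins that pair with Trmt112 were above background. Alkbh8, which modifies the transfer RNA wobble base, was at 8.52 ± 0.038, the guanosine methyltransferase subunit Trmt11 at 9.94 ± 0.096, and N6amt1, which methylates a release factor, at 8.19 ± 0.080; Mettl5, given above, is also one of them. All 6 were higher on replicate 2, by a median of 0.12 log2 units, and 0 of 6 reached 1.2-fold. Of the 12769 genes that exceeded the threshold on either array, 56.8% were higher on replicate 2, with a median of 0.015, and 3.79% reached 1.2-fold. Replicate 2 was also the higher in 7 of 8 other rRNA modifying enzymes, 6 of 7 box C/D genes and 16 of 20 small-subunit assembly genes. In the other lists it was higher in 5 of 7 mitochondrial genes, 4 of 6 box H/ACA genes and 8 of 13 large-subunit assembly genes. It was also higher in 5 of 8 neighbours, 6 of 11 genes of RNA polymerase I and the 1 other m5C gene above background. The share of 56.8% covers genes at every level past the threshold, and the counts were not adjusted for level. Among the 6 partners of Trmt112 the widest difference was that of Thumpd2, at 6.80 and 7.02 (difference 0.22). No test was made of these counts.

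All 7 measured genes of the box C/D particles, in which Fbl works, were above background, led in list order by the core proteins Nop56 (12.31 ± 0.032) and Nop58 (12.17 ± 0.026) and the assembly factor Nufip1 (9.90 ± 0.047). So were all 6 of the box H/ACA particles, which guide pseudouridylation, with the pseudouridine synthase gene Dkc1 at 11.87 ± 0.040, Nhp2 at 12.72 ± 0.016 and Nop10 at 12.49 ± 0.043. All 20 small-subunit assembly genes were, with Utp20 at 10.42 ± 0.015, Heatr1 at 10.18 ± 0.032 and Wdr36 at 9.52 ± 0.028, and all 13 measured large-subunit assembly genes, with Npm1 at 14.31 ± 0.052, Ncl at 13.49 ± 0.014 and Pes1 at 10.67 ± 0.00092. In the large-subunit list 1 gene of 13 passed 1.2-fold between the arrays, Nle1, at 7.24 and 7.52, beside 3.79% of 12769 genes. All 11 genes of RNA polymerase I and its factors were above background, with the large subunit gene Polr1a at 9.09 ± 0.023, Polr1b at 9.03 ± 0.060 and Polr1c at 11.13 ± 0.042. Of the WBS segment and flank, all 8 measured neighbours were, Stx1a, Dnajc30 and Pom121 with the values above, Abhd11, a mitochondrial hydrolase, at 9.42 ± 0.026 and Mettl27, a further predicted methyltransferase of the segment, at 7.43 ± 0.12. Of the listed genes, Trim50, Fkbp6, Snu13 and Mrto4 were not analysed here.

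**Figure D4:**
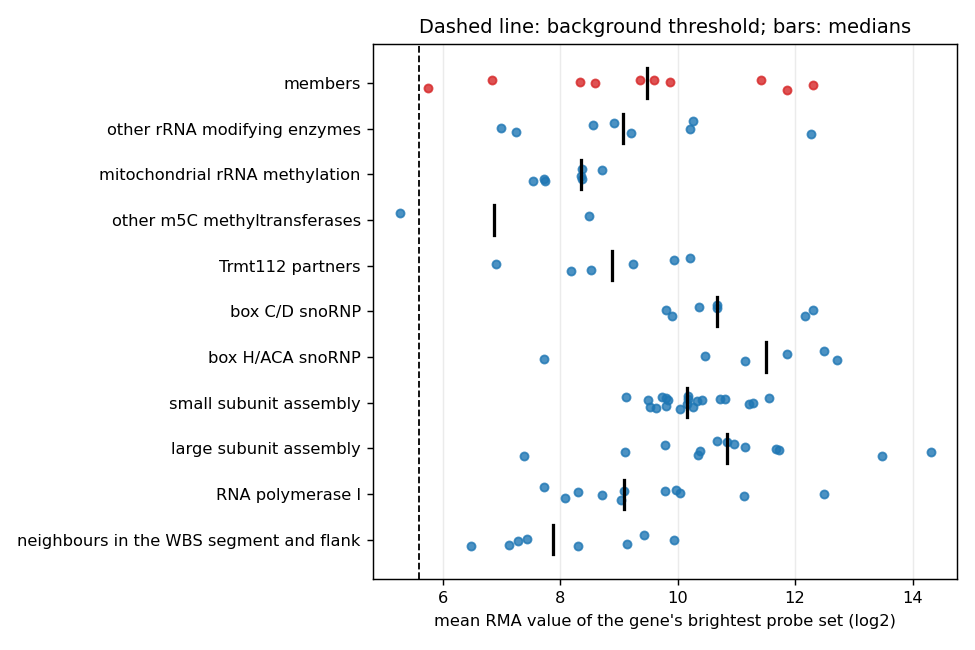
Mean RMA value (log2, x axis) of each gene's brightest probe set for the 10 members (red) and the genes of the 10 fixed lists (blue, rows); black bars are medians and the dashed line is the gene threshold, 5.59. Nsun7 at 5.27 is the 1 point left of the line, and Nsun6 at 5.75 is the nearest to its right.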

How the data were processed

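Total RNA of the 2 arrays was extracted with Trizol, and biotinylated cRNA was made from 6 µg, per the labels' protocols. The deposited values are log2 expression values made by the authors with RMA, per the submitters' processing notes. The RMA version and the set of arrays normalized jointly were not given in the sources used here. Equalising the arrays hides a change shared by most genes. RMA gives no detection call, and arrays have no read depth, so their number limits the precision. No column of values was left out.

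Gene names came from the platform annotation: of 45101, 34958 had 1 symbol, 932 had several and 9211 had none here. The symbols of all 20 member probe sets matched RefSeq by gene identifier, and 0 entries with several genes held a member. The brightest probe set stood for a gene. Python 3.11.15 with pandas 2.3.3, numpy 2.4.6 and statsmodels 0.14.6 was used, and the counting steps were tested on simulated data. The members, lists and thresholds were chosen with earlier results of these data known. Genes named from a list are the first 3 above background in list order and every gene that was not, besides every member and the neighbours of Bud23 and Nsun5; Thumpd2, Nle1, Mettl27 and the cell type markers were named after their values were seen. Promoter windows are RefSeq's, build GRCm38.p6, and motifs were searched on both strands. Alternatives were other reference genes, the 90th and 99th percentiles, the median of all probe sets, unshared probe sets, centred arrays, loess of the difference (fraction 0.3), 1.5-fold, no filter on dim genes, and each array alone.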

Additional observations from a re-analysis of the deposited data

How the results depend on the processing

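Of 101 alternative counts, 101 stayed within 1.5 times the reported count. This limit could hardly be passed, so it says little of robustness. Of these counts 80 were list counts, mostly with every measured gene above background, and 6 were counts of 0 members past the fold limit. Counts were compared as such, also where fewer genes or probe sets were measured. The 10 members above background became 9 with the vomeronasal and taste receptors, which left out Nsun6, 9 with the median over a gene's probe sets, which left out Nsun3, and 9 of 9 with unshared probe sets, which do not measure Bud23. They stayed 10 at the 90th and 99th percentiles, with centred arrays and with each array alone. The threshold was recomputed in each setting and was 5.28 with unshared probe sets, against 5.59 in the main count. Nsun6, at 5.55 with unshared probe sets, was above 5.28 but not above 5.59. The 16 probe sets became 18 at the 90th percentile, 15 with the other receptors, 11 of 14 unshared, and 16 to 17 with each array alone. Of 49 alternative levels, 10 moved by more than the SD between replicates, all with the median of all probe sets or unshared probe sets. The median gave 8.12 for Dimt1, 7.63 for Nsun5 and 9.33 for Trmt112, and unshared probe sets gave 6.43 for Nsun4. Levels with centred arrays or each array alone could not move by this rule. Centring leaves the mean unchanged, and each of 2 arrays lies within their SD of the mean. Those levels are thus no sign of stability. The difference between the arrays changed sign for Dimt1, to -0.085 with the median of its probe sets, and for Nsun6, to -0.028 with the median and -0.19 with unshared probe sets. Smaller differences of Fbl, Nsun4 and Trmt112 also changed sign with another probe set rule, each by less than the SD of 0.114 over all genes, and that of Fbl with loess. No member reached 1.2-fold under any alternative tried. No paired analysis was possible because there is 1 group. Signal over background limits the calls of Nsun3 and Nsun6.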
